A study of Mus musculus with 12 samples.

Results

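The 41 genes described here act in late cell cycle, from G2 through the end of mitosis, and were taken as a fixed list of symbols matched to the Ensembl identifiers of the count files. All 41 were found among the 40551 genes of the files, and all 41 were among the 15070 genes that passed the filter on low counts. The list was not defined by a measured value, but it was drawn up with earlier results of these livers known. The data are total RNA-seq counts of 12 mouse livers, 3 per genotype, which the study took at 2 months of age from mice of both sexes.

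The groups were wild type (WT), Sting1 KO (Sting1-/-, lacking the DNA-sensing adaptor STING in every cell), Mcl1 KO (Mcl1Δhep) and Mcl1 Sting1 DKO (Mcl1Δhep Sting1-/-). In Mcl1Δhep mice, floxed Mcl1, which encodes an antiapoptotic BCL2 family protein, is removed by Cre under the albumin promoter. The deletion is therefore directed at cells in which this promoter is or was active, chiefly hepatocytes. Which other liver cells keep Mcl1 was not tested. The livers are whole tissue, so fewer cells of a type and less RNA per cell cannot be told apart, and a higher level of a mitotic transcript does not say which cells carried it.

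Cells enter mitosis when cyclin B binds CDK1. Aurora and Polo-like kinases then build the spindle, condensin compacts the chromosomes, and kinetochores attach them to microtubules. The spindle checkpoint holds back the anaphase-promoting complex until every chromosome is attached, after which CDC20 and UBE2C drive the destruction of cyclins, and the central spindle directs cytokinesis. Most of these genes are transcribed together late in the cycle, through a promoter element called CHR that binds the MuvB complex, with B-MYB and FOXM1 as its activating partners and NF-Y at nearby CCAAT boxes. Hepatocytes of an adult liver are largely quiescent and re-enter the cycle after injury or loss of tissue.

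The promoters of 6 members are shown because they match the elements by which these genes are known, or lack the strings searched here. The sequences are the RefSeq promoters of GRCm38.p6, 250 bases before to 50 bases after the start of transcription, 5′ to 3′. Each matched the chromosome of its gene in GRCm39 once, at the position given, and other chromosomes were not searched. Capitals mark CHR (TTTGAA or TTCGAA) and CCAAT on either strand, and the 2 motifs do not overlap in these promoters.
Cdk1 (chr10:69188693-69188992, minus strand): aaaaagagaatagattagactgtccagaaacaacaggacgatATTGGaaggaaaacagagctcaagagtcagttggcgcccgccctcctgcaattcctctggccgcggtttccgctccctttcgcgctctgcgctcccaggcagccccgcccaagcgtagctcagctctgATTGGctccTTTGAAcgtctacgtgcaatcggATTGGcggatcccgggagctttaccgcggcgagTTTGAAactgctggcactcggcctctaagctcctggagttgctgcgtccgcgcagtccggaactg
Ccnb2 (chr9:70328787-70329086, minus strand): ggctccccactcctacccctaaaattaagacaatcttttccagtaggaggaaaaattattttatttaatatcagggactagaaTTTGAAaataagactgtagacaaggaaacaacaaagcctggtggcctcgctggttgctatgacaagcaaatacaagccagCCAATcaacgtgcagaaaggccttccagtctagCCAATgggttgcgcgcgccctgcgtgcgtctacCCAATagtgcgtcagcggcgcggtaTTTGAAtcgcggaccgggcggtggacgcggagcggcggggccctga
Cdc20 (chr4:118294491-118294790, minus strand): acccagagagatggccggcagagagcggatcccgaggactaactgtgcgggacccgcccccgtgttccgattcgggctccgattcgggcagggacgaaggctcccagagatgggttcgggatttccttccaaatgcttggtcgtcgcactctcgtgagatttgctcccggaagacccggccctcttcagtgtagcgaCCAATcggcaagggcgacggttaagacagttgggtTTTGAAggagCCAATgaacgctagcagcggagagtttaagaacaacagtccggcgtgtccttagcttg
Plk1 (chr7:121758408-121758707, plus strand): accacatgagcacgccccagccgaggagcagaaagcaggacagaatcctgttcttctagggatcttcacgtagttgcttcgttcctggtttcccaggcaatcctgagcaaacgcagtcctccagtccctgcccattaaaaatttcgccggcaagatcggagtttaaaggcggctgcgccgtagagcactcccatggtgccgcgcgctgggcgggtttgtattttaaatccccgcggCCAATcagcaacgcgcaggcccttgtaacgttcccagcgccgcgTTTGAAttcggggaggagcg
Ccnb1 (chr13:100922945-100923244, minus strand): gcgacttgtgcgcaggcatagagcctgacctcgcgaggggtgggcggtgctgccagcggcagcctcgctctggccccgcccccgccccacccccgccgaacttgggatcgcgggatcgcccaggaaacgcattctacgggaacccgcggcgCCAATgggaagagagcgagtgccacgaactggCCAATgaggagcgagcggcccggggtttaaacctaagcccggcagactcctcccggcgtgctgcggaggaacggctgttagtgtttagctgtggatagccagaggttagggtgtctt
Birc5 (chr11:117739813-117740112, plus strand): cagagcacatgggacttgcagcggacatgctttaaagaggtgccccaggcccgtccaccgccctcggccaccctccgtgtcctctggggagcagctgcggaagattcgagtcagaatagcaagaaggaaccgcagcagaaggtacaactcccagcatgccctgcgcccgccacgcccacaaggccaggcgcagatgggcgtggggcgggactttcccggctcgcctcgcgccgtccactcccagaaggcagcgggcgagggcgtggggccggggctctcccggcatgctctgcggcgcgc

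Cdk1, Ccnb2, Cdc20 and Plk1 had both motifs. Ccnb1 had CCAAT but neither string searched as CHR, and Birc5 had no match to either motif in this window. Other forms of CHR were not searched, so a promoter without a match may still hold one. Of the 41 members, 35 had a promoter in the RefSeq table, and Foxm1, Ccna2, Aurkb, Tpx2, Pbk and Dlgap5 were not looked at. CHR was present in 28 of the 35, or 80.0%, against 21.7% of the 27025 genes of the table and 17.0% of the 11045 tested genes with a promoter. CCAAT was present in 27, or 77.1%, against 41.1% of all genes and 42.9% of tested genes. Both motifs together were present in 25, or 71.4%, against 8.61% and 7.03%. An E2F-like motif (TTCCCGC, either strand), known from genes of the G1/S transition, was present in 1 member, Ncapg, or 2.86%, against 5.29% and 9.28%.

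CHR lay close to the start of transcription. Ect2 and Prc1 had overlapping promoter entries, and each site of the genome was counted once, from the nearer start. The 38 sites of CHR began at a median position of 3 after the start, and 27 of the 38 began within 50 bases of it, as in Ccnb2 (5 bases after), Cdk1 (15 bases before) and Plk1 (31 bases after). In the window of 50 bases on each side, which was chosen after the data were seen, 74.3% of member promoters had CHR, against 6.12% of all promoters and 4.56% of those of tested genes. When the 50 bases after the start were left out, the share of members with CHR was 37.1%, against 19.6% of all genes. The 63 sites of CCAAT began at a median of 71 bases before the start. A match describes the letters and does not show that the site is bound in liver.

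**Figure D1:**
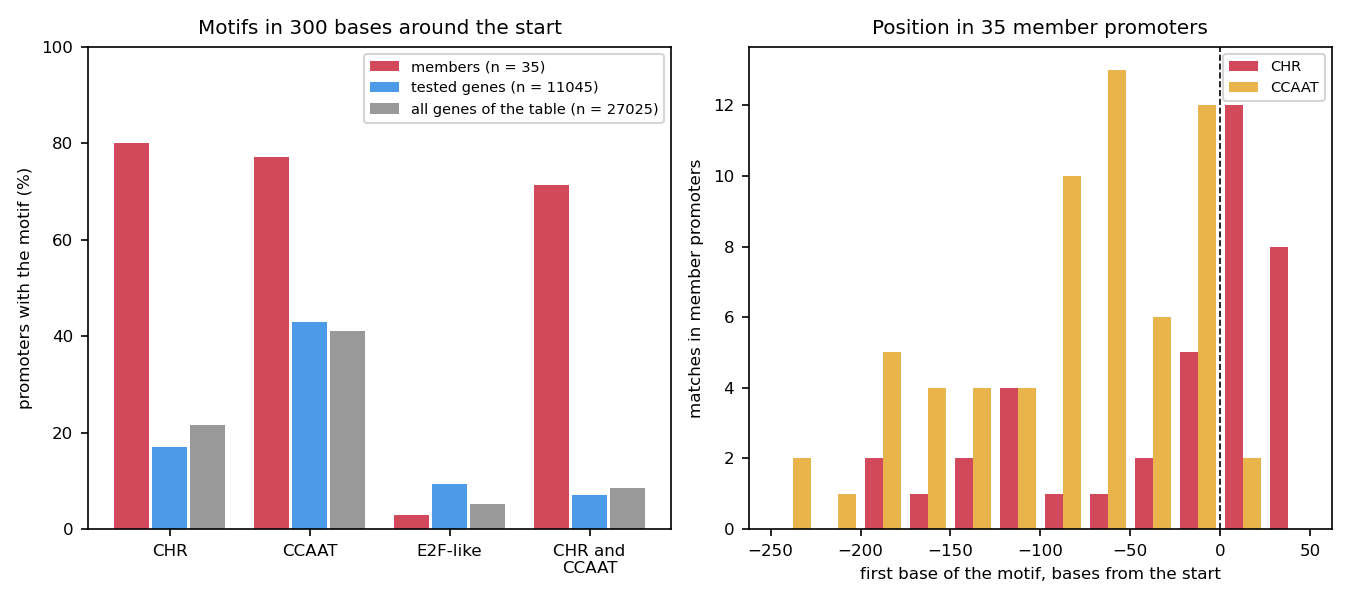
Left, the share of promoters (y axis, %) that hold each motif, for the 35 members, the 11045 tested genes and all 27025 genes of the promoter table. Right, the number of CHR and CCAAT matches in member promoters (y axis) by the distance of their first base from the start of transcription (x axis, bases, in bins of 25). CHR reaches 80.0% of members against 21.7% of all genes, and its matches gather around the start while those of CCAAT lie mostly before it.

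The libraries held 28826367 to 45266387 counts on genes, of which the 41 members together took 1305 to 25136 counts per library, so that single members had as few as 1 count in a WT library. As a check of the labels, Mcl1 had 98.6 ± 7.36 CPM (counts scaled to library size after TMM normalisation, mean ± SD, n = 3) in WT and 29.0 ± 4.58 in Mcl1Δhep livers, a log2 fold change of -1.77 (adjusted p = 0.000605, edgeR quasi-likelihood test). Sting1 counts did not separate Sting1-/- from WT livers (-0.33, adjusted p = 0.998). In Mcl1Δhep Sting1-/- against Mcl1Δhep livers Sting1 had a log2 fold change of -1.05 (adjusted p = 0.134), and these groups did not overlap. Y-linked genes were expressed in WT replicates 2 and 3 and in Mcl1Δhep Sting1-/- replicate 1 alone. Small structured RNAs took 2.37% and 1.36% of the counts in Mcl1Δhep replicates 2 and 3, against 0.172 to 0.897% in the other 10 libraries. Skeletal muscle markers summed to 1499 CPM in Mcl1Δhep replicate 3 and to at most 8.19 CPM elsewhere.

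The members were scarce in livers with intact Mcl1. Their levels per exon length, averaged over the 3 WT livers, ran from 0.0999 TPM for Ttk to 3.15 TPM for Smc2, a core condensin subunit. In Mcl1Δhep livers the highest mean was that of Cdc20 (40.4 TPM), the activator of the anaphase-promoting complex, followed by the B-type cyclin Ccnb2 (16.3 TPM), Cdca3 (11.2 TPM), Ccna2 and Mki67 (10.5 TPM each). Ndc80, a subunit of the outer kinetochore, was the lowest in the Mcl1Δhep livers (0.876 TPM). Neighbours in the order were closer to each other than their libraries were, as Ccna2 and Mki67 show. On the filter used, 39 members passed through the livers with intact Mcl1 alone, and Pbk and Bub1 passed through the Mcl1-deleted livers only, so these 2 had to be higher there.

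Summed over the 41 members, the WT livers had 50.02, 42.4 and 43.1 CPM and the Sting1-/- livers had 82.1, 62.3 and 61.7 CPM. The Mcl1Δhep livers had 520, 337 and 197 CPM. The Mcl1Δhep Sting1-/- livers had 625, 331 and 173 CPM. Every Mcl1-deleted liver was above every liver with intact Mcl1, and the highest and lowest Mcl1-deleted livers of one genotype differed 2.64-fold and 3.61-fold.

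**Figure D2:**
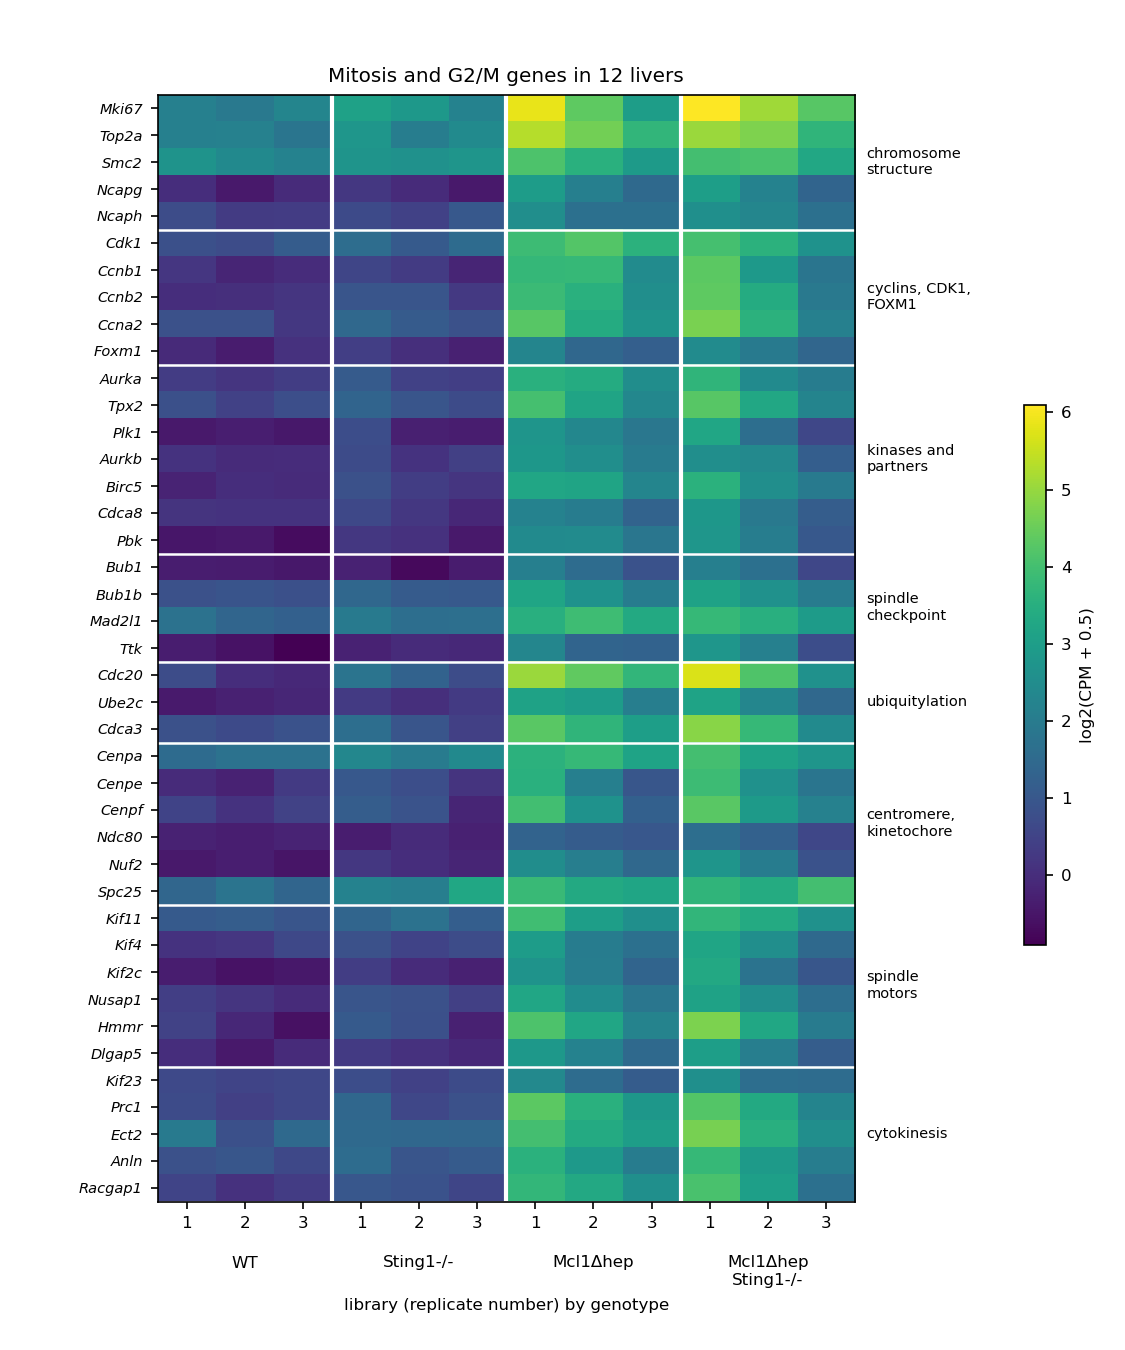
Colour shows log2(CPM + 0.5) of the 41 members (rows, in order of role) in 12 libraries (columns, 3 per genotype). The 6 columns of Mcl1-deleted livers are brighter than the 6 columns of livers with intact Mcl1, and replicate 1 is the brightest of both Mcl1-deleted genotypes.

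The first comparison asks which of these genes differ between Mcl1Δhep and WT livers. All 41 were higher in Mcl1Δhep livers at an adjusted p under 0.05 (edgeR quasi-likelihood test, Benjamini-Hochberg adjustment over 15070 genes), where 10.8% of all tested genes were higher. The median log2 fold change was 3.19, or 9.10-fold, against -0.00 for all tested genes, and it ran from 1.25 for Smc2 to 4.83 for Cdc20. Adjusted p ranged from 0.000966 (Cdk1) to 0.0207 (Kif23). The 3 Mcl1Δhep livers lay above the 3 WT livers for each of the 41 members, which held for 16.2% of tested genes. Without Pbk and Bub1, the count was 39 of 39 and the median 3.19.

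The same deletion was compared in mice without STING, as Mcl1Δhep Sting1-/- against Sting1-/- livers. All 41 members had a positive log2 fold change, against 48.5% of tested genes, with a median of 2.69 and a range from 1.15 (Spc25) to 3.72 (Ccnb1), and 26 of them passed an adjusted p of 0.05, where 0.677% of all tested genes were higher. Groups did not overlap for 40 members, with Plk1 the exception, against 11.5% of tested genes. The 15 that did not pass had adjusted p from 0.0505 (Ccna2) to 0.150 (Spc25) and unadjusted p under 0.05, as 7.27% of tested genes had in this direction, and their log2 fold changes ran from 1.15 to 3.53. This count rested on single livers, as did the calls over all genes. It was 0 without Mcl1Δhep Sting1-/- replicate 1 or 2 or without any 1 of the Sting1-/- livers, where 1 to 3 of all 15070 genes were called and the members' median was 1.98, 2.78, 2.90, 2.59 and 2.44 in turn. It was 9 without WT replicate 2, WT replicate 3 or Mcl1Δhep replicate 2, and 41 with DESeq2, which called 3.16% of the genes it tested.

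Averaged over both Sting1 backgrounds, 41 of 41 members rose with Mcl1 deletion, where 9.90% of tested genes were higher. The median was 3.01, from 1.22 (Smc2) to 4.22 (Cdc20). All 6 Mcl1-deleted livers lay above all 6 livers with intact Mcl1 for 37 members, against 4.27% of tested genes, and the exceptions were Mki67, Plk1, Cenpe and Spc25. Without Pbk and Bub1, the median was 2.92 with 39 of 39 called in the average, and 2.67 with 24 of 39 called without STING. The 3 comparisons use the same livers and are not independent of each other. Among libraries without Y-linked expression, with 1 WT and 2 Mcl1Δhep Sting1-/- livers left, 32 of 41 passed in this average and 0 in either background, with medians of 2.60, 2.98 (Mcl1Δhep against WT) and 1.98 (Mcl1Δhep Sting1-/- against Sting1-/-). In that subset the calls over all genes were 363 in the average, 4 for Mcl1Δhep against WT and 0 without STING.

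**Figure D3:**
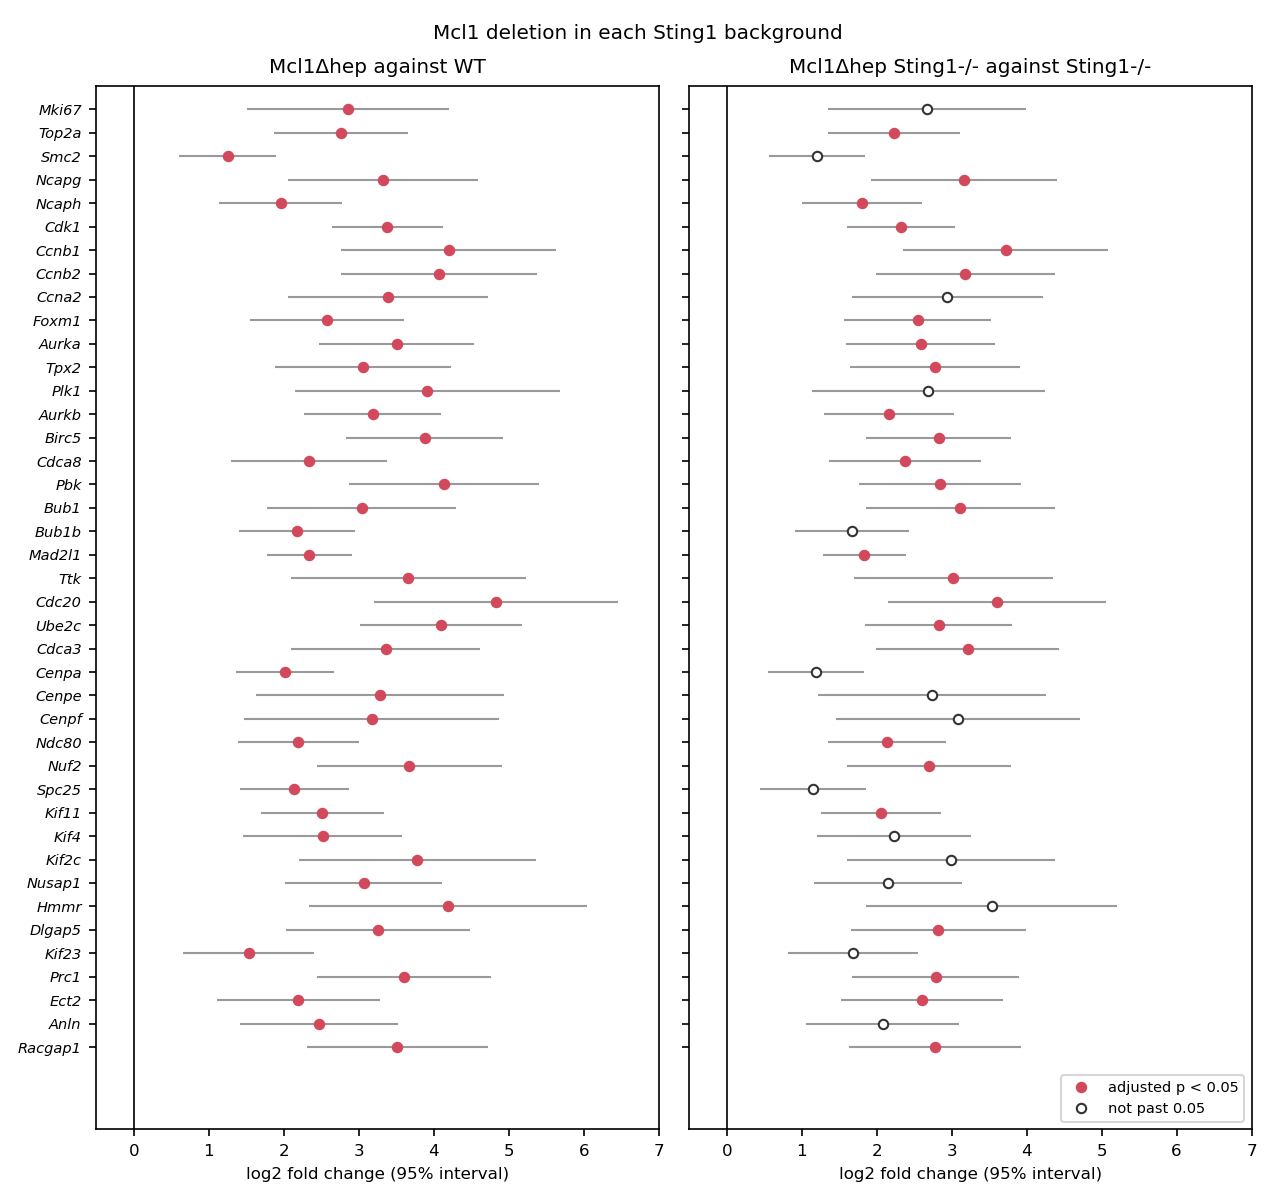
Log2 fold change of each member (x axis, points) with its 95% interval (lines), for Mcl1Δhep against WT (left) and Mcl1Δhep Sting1-/- against Sting1-/- (right), with filled points for an adjusted p under 0.05. All 41 points are filled on the left and 26 on the right, and every interval lies above 0.

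Proliferation marker and chromosome structure genes rose together. Mki67, which encodes the Ki-67 antigen of cycling cells, had 3.93, 3.32 and 4.39 CPM in WT, 8.15, 6.63 and 4.10 in Sting1-/-, 57.7, 20.01 and 7.49 in Mcl1Δhep and 68.0, 33.9 and 18.9 in Mcl1Δhep Sting1-/- livers. The lowest Mcl1Δhep liver lay below the highest Sting1-/- liver, and the groups of each direct comparison did not overlap. Its log2 fold change was 2.86 (SE 0.62, adjusted p = 0.0127) against WT, and 2.67 (SE 0.61) without STING, where the adjusted p was 0.0853. Against WT it was 1.81 without Mcl1Δhep replicate 1. Top2a, the topoisomerase that untangles sister chromatids, had 3.96, 3.97 and 3.005 CPM in WT, 6.31, 3.69 and 4.92 in Sting1-/-, 39.1, 23.8 and 12.5 in Mcl1Δhep and 32.4, 26.1 and 12.2 in Mcl1Δhep Sting1-/- livers. No Mcl1-deleted liver reached down to the others, and Top2a passed in both backgrounds (2.77, adjusted p = 0.00253, and 2.23, adjusted p = 0.0378).

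The 3 condensin genes of the list differed in size of change. Smc2, shared by both condensin complexes, had 5.91, 4.83 and 4.09 CPM in WT, 6.02, 5.73 and 6.18 in Sting1-/-, 17.2, 11.2 and 7.08 in Mcl1Δhep and 15.6, 16.5 and 9.33 in Mcl1Δhep Sting1-/- livers. It had the highest WT level per length and the smallest average change of all members (1.22, SE 0.21, adjusted p = 0.00290). Ncapg and Ncaph, subunits of condensin I alone, changed by 3.24 and 1.88 in the average.

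Of the genes that switch on mitosis, Cdk1, the kinase itself, had 1.24, 1.16 and 1.68 CPM in WT, 2.53, 1.59 and 2.41 in Sting1-/-, 14.3, 18.2 and 11.5 in Mcl1Δhep and 16.0, 11.6 and 5.88 in Mcl1Δhep Sting1-/- livers. The Mcl1-deleted livers stood clear of the others, with the third Mcl1Δhep Sting1-/- liver lowest among them. Cdk1 had the lowest adjusted p of the group in the average (2.85, SE 0.24, adjusted p = 0.000248). Ccnb1, its activating cyclin, had 0.660, 0.386 and 0.495 CPM in WT, 0.960, 0.743 and 0.386 in Sting1-/-, 13.0, 13.2 and 5.09 in Mcl1Δhep and 19.6, 6.70 and 3.04 in Mcl1Δhep Sting1-/- livers. Its change was among the largest in both backgrounds (4.20, adjusted p = 0.00276, and 3.72, adjusted p = 0.0305).

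Ccna2, the cyclin of S and G2 phase, had 1.27, 1.28 and 0.660 CPM in WT, 2.24, 1.65 and 1.28 in Sting1-/-, 19.1, 10.2 and 5.91 in Mcl1Δhep and 25.3, 11.6 and 3.89 in Mcl1Δhep Sting1-/- livers. It passed against WT (3.39, adjusted p = 0.00549) and missed the threshold without STING (2.94, 95% interval 1.67 to 4.22, adjusted p = 0.0505). Foxm1, the transcription factor that drives many of these genes, had 0.449, 0.267 and 0.561 CPM in WT, 0.815, 0.531 and 0.338 in Sting1-/-, 4.34, 2.20 and 1.83 in Mcl1Δhep and 5.04, 3.39 and 2.13 in Mcl1Δhep Sting1-/- livers. It passed in both backgrounds with nearly the same estimate (2.58, adjusted p = 0.00439, and 2.54, adjusted p = 0.0305). Ccnb2 changed by 3.63 in the average.

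All 7 kinases and partners, Pbk among them, had a positive average change, with a median of 3.05. Birc5, which encodes survivin of the chromosomal passenger complex, had 0.369, 0.504 and 0.462 CPM in WT, 1.28, 0.796 and 0.627 in Sting1-/-, 8.85, 8.63 and 4.33 in Mcl1Δhep and 11.4, 5.41 and 3.37 in Mcl1Δhep Sting1-/- livers. It separated the livers fully by Mcl1 status (3.35, SE 0.33, adjusted p = 0.000274). Its promoter window had no match to either motif, and a link between motif and change was not tested. Plk1, the Polo-like kinase, had 0.237, 0.297 and 0.231 CPM in WT, 1.19, 0.318 and 0.290 in Sting1-/-, 6.14, 4.53 and 3.16 in Mcl1Δhep and 8.85, 2.56 and 0.985 in Mcl1Δhep Sting1-/- livers. One Sting1-/- liver lay above one Mcl1Δhep Sting1-/- liver, and without STING Plk1 had a log2 fold change of 2.69 (adjusted p = 0.120), which ran from 1.50 to 3.54 on leaving out single libraries.

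Cdca8, which encodes borealin, another passenger subunit, had the smallest average change of the kinases and partners. It had 0.607, 0.593 and 0.594 CPM in WT, 1.02, 0.663 and 0.410 in Sting1-/-, 4.12, 3.58 and 2.02 in Mcl1Δhep and 6.45, 3.29 and 1.75 in Mcl1Δhep Sting1-/- livers. The Mcl1-deleted livers did not overlap the others (2.36, SE 0.33, adjusted p = 0.000884). Aurka, Aurkb and the Aurora A activator Tpx2 changed by 2.67 to 3.05 in the average. The kinase Pbk had entered the test through the Mcl1-deleted livers, so its estimate (3.49 in the average) is given as a value alone. Aurka shares 25.2% of its exon bases with Fam210b on the other strand, whose own log2 fold change was -0.40 in the average (adjusted p = 0.0348). Opposite-strand overlaps of over 10% with an expressed gene were also found for Ncapg (Lcorl, 25.01%), Ccna2 (Exosc9, 17.5%), Prc1 (Rccd1, 11.8%) and Kif4 (Pdzd11, 11.1%). The part of these partners in the member values was not tested.

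The 4 spindle checkpoint genes, Bub1 among them, had a median average change of 2.58. Mad2l1, which encodes the inhibitor of CDC20, had 2.82, 2.08 and 1.85 CPM in WT, 3.43, 2.57 and 2.63 in Sting1-/-, 10.8, 14.5 and 9.58 in Mcl1Δhep and 13.2, 10.8 and 7.14 in Mcl1Δhep Sting1-/- livers. Its Mcl1-deleted livers spanned 2.03-fold, and Mad2l1 passed in both backgrounds (2.34, adjusted p = 0.000979, and 1.83, adjusted p = 0.0206). Ttk, the kinase MPS1 that starts checkpoint signalling, had 0.290, 0.178 and 0.0330 CPM in WT, 0.349, 0.478 and 0.434 in Sting1-/-, 4.41, 2.05 and 1.96 in Mcl1Δhep and 6.38, 3.92 and 1.18 in Mcl1Δhep Sting1-/- livers. The lowest WT value of Ttk was 1 count, and its groups stayed apart (3.34, SE 0.47, adjusted p = 0.000679). Bub1, a kinetochore kinase, had 0.290, 0.267 and 0.231 CPM in WT, 0.349, 0.106 and 0.265 in Sting1-/-, 3.87, 2.48 and 1.30 in Mcl1Δhep and 3.81, 2.70 and 0.985 in Mcl1Δhep Sting1-/- livers. Bub1 had entered the test through the Mcl1-deleted livers, so its estimates (3.04 against WT and 3.11 without STING) are given as values alone. Bub1b changed by 1.93 in the average.

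The 3 genes of mitotic ubiquitylation had the highest group median, 3.46 in the average. Ube2c, the ubiquitin-conjugating enzyme of the anaphase-promoting complex, had 0.264, 0.326 and 0.396 CPM in WT, 0.727, 0.531 and 0.724 in Sting1-/-, 8.23, 7.34 and 3.73 in Mcl1Δhep and 8.45, 4.41 and 2.24 in Mcl1Δhep Sting1-/- livers. Its average change was 3.46 (SE 0.33, adjusted p = 0.000250). Ube2c shares 19.0% of its exon bases with the muscle gene Tnnc2 on the other strand, which had 77.6 CPM in Mcl1Δhep replicate 3 and at most 0.237 CPM elsewhere. Replicate 3 was the lowest Mcl1Δhep liver for Ube2c as for all members, and the part of Tnnc2 reads in the Ube2c value was not tested. Cdca3, a partner of an SCF ubiquitin ligase, had 1.27, 1.10 and 1.32 CPM in WT, 2.59, 1.43 and 0.844 in Sting1-/-, 19.1, 12.4 and 7.65 in Mcl1Δhep and 28.2, 13.2 and 4.95 in Mcl1Δhep Sting1-/- livers. It rose in both backgrounds (3.36, adjusted p = 0.00457, and 3.22, adjusted p = 0.0352).

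Cdc20 was singled out after its values were seen. It had 1.16, 0.504 and 0.429 CPM in WT, 2.94, 1.94 and 1.16 in Sting1-/-, 32.3, 20.3 and 12.6 in Mcl1Δhep and 51.7, 17.6 and 5.66 in Mcl1Δhep Sting1-/- livers. Its Mcl1-deleted livers spanned 9.14-fold and still lay above all others, with log2 fold changes of 4.83 (95% interval 3.21 to 6.46) and 3.61 (95% interval 2.16 to 5.06).

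**Figure D4:**
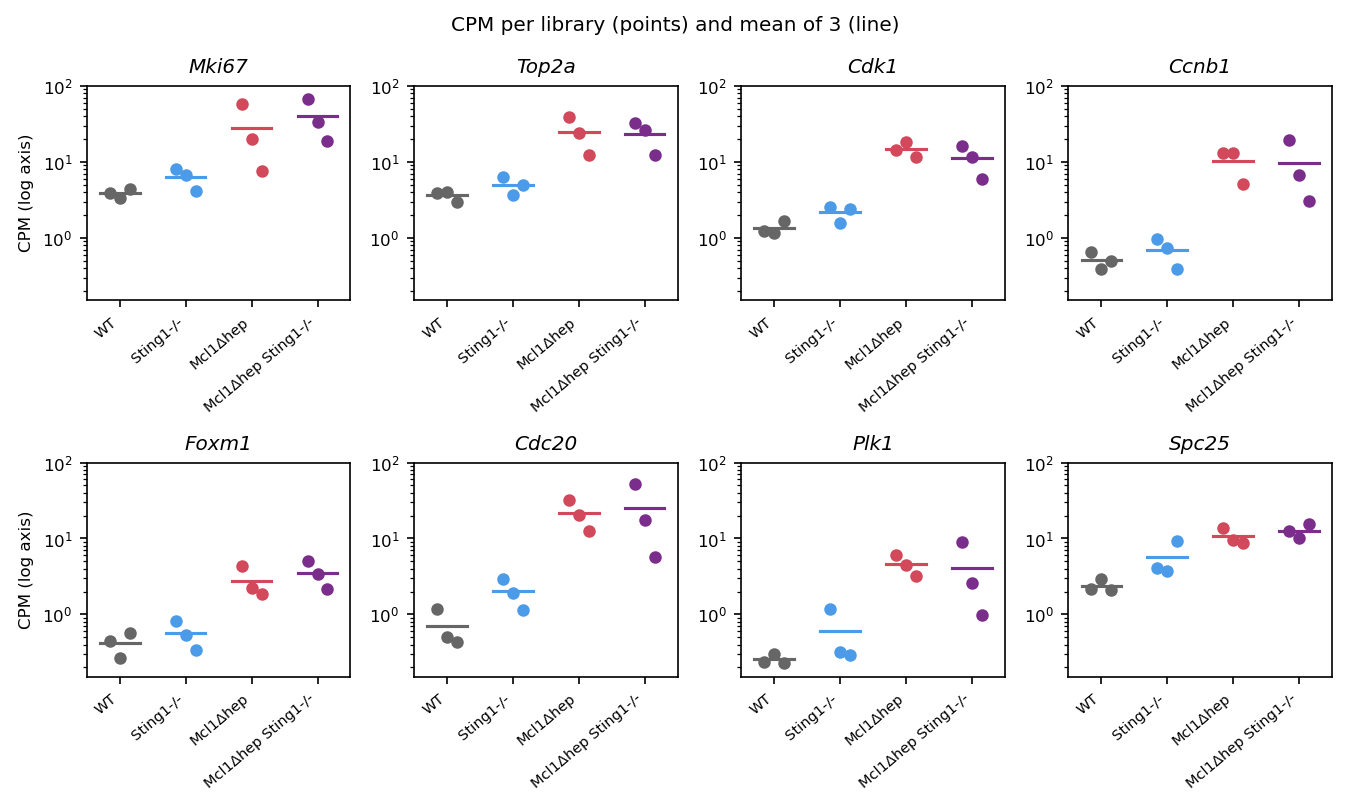
CPM of 8 members (y axis, log scale, the same in each panel) in each library (points) with the mean of 3 livers (line), by genotype (x axis). Mcl1-deleted livers lie above the others for most members, with overlap for Mki67, Plk1 and Spc25, and the 3 livers of a Mcl1-deleted genotype are spread widely.

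Centromere and kinetochore genes rose by a median of 2.59 in the average. Ndc80, which grips the microtubule, had 0.343, 0.297 and 0.363 CPM in WT, 0.291, 0.478 and 0.338 in Sting1-/-, 1.99, 1.68 and 1.49 in Mcl1Δhep and 2.57, 1.90 and 0.985 in Mcl1Δhep Sting1-/- livers. Its values were low, with an SD of 0.252 CPM in Mcl1Δhep and 0.797 CPM in Mcl1Δhep Sting1-/- livers. Ndc80 passed in both backgrounds (2.19, adjusted p = 0.00274, and 2.14, adjusted p = 0.0268). Cenpf, a large kinetochore protein that peaks in G2, had 0.923, 0.593 and 0.892 CPM in WT, 1.72, 1.35 and 0.386 in Sting1-/-, 15.2, 5.84 and 1.87 in Mcl1Δhep and 19.4, 7.02 and 3.995 in Mcl1Δhep Sting1-/- livers. Its Mcl1-deleted livers differed 10.4-fold, the most of all members, and it had the highest adjusted p in the average (3.13, SE 0.54, adjusted p = 0.00336). Cenpa, the histone variant of centromeres, Nuf2, a partner of NDC80, and Cenpe, a kinetochore motor, changed by 1.61, 3.19 and 3.01.

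Spc25 departed from the other members and was singled out after its values were seen. This partner of NDC80 had 2.14, 2.97 and 2.08 CPM in WT, 4.10, 3.77 and 9.12 in Sting1-/-, 13.8, 9.64 and 8.70 in Mcl1Δhep and 12.4, 10.1 and 15.5 in Mcl1Δhep Sting1-/- livers. Replicate 3 was its highest liver in Sting1-/- and in Mcl1Δhep Sting1-/-, whereas replicate 3 of Mcl1Δhep Sting1-/- was the lowest for the other 40 members. Spc25 shares 52.5% of its exon bases with Nostrin on the other strand, an expressed gene that had 18.7 CPM in that Sting1-/- liver and 16.9 CPM in that Mcl1Δhep Sting1-/- liver, each the lowest of its genotype. Whether strand was used in counting is not given in the sources used here, and the part of Nostrin in these values was not tested.

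Spindle motors and microtubule-binding proteins rose by a median of 2.82 in the average. Kif11, the motor that pushes spindle poles apart, had 1.61, 1.75 and 1.42 CPM in WT, 2.10, 2.81 and 1.76 in Sting1-/-, 14.8, 7.62 and 5.53 in Mcl1Δhep and 12.6, 9.97 and 5.66 in Mcl1Δhep Sting1-/- livers. It passed in both backgrounds (2.51, adjusted p = 0.00233, and 2.05, adjusted p = 0.0348). Hmmr, a hyaluronan receptor that also binds spindle microtubules, had 0.897, 0.415 and 0.165 CPM in WT, 1.60, 1.25 and 0.338 in Sting1-/-, 17.2, 8.995 and 4.21 in Mcl1Δhep and 25.7, 9.07 and 3.503 in Mcl1Δhep Sting1-/- livers. Its groups did not overlap, yet the spread was wide (3.86, SE 0.57, adjusted p = 0.00140). The chromosome motor Kif4, the microtubule depolymerase Kif2c, Nusap1 and Dlgap5 changed by 2.37 to 3.38, and of these 4 Dlgap5 alone passed without STING (adjusted p = 0.0380).

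Cytokinesis genes had the lowest group median, 2.40 in the average. Prc1, which bundles the central spindle, had 1.11, 0.830 and 0.991 CPM in WT, 2.21, 1.01 and 1.28 in Sting1-/-, 19.8, 11.1 and 6.51 in Mcl1Δhep and 18.1, 9.60 and 4.27 in Mcl1Δhep Sting1-/- livers. It passed in both backgrounds (3.60, adjusted p = 0.00235, and 2.79, adjusted p = 0.0380). Kif23, the motor of the centralspindlin complex, had 1.06, 0.949 and 0.991 CPM in WT, 1.16, 0.876 and 1.11 in Sting1-/-, 4.76, 2.45 and 1.71 in Mcl1Δhep and 5.48, 2.56 and 2.46 in Mcl1Δhep Sting1-/- livers. Its change was small for this list and its groups did not overlap (1.61, SE 0.28, adjusted p = 0.00304). Against WT it was 1.53, and 1.01 without Mcl1Δhep replicate 1. Ect2, the activator of RhoA at the division site, had 3.43, 1.25 and 2.31 CPM in WT, 2.33, 2.20 and 2.12 in Sting1-/-, 15.4, 9.79 and 7.43 in Mcl1Δhep and 24.99, 10.9 and 5.39 in Mcl1Δhep Sting1-/- livers. Ect2 passed in both backgrounds (2.20, adjusted p = 0.0133, and 2.60, adjusted p = 0.0442). Racgap1, the other centralspindlin subunit, and the scaffold Anln changed by 3.15 and 2.27.

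In the Mcl1-deleted genotypes the livers ranked alike across members. Replicate 1 was the highest Mcl1Δhep liver for 36 of 41 members and replicate 3 the lowest for all 41. Among Mcl1Δhep Sting1-/- livers, replicate 1 was the highest for 39 members and replicate 3 the lowest for 40. In WT, replicates 1, 2 and 3 were the highest for 20, 11 and 10 members, and in Sting1-/- for 34, 3 and 4. Of the 12 libraries, Mcl1Δhep Sting1-/- replicate 1 was the highest for 30 members and Mcl1Δhep replicate 1 for 8. The median SD of log2(CPM + 0.5) within a genotype was 0.63 for members and 0.28 for all tested genes in Mcl1Δhep livers, and 0.86 and 0.18 in Mcl1Δhep Sting1-/- livers. In Sting1-/- livers it was 0.31 and 0.16, and in WT livers it was 0.20 and 0.18. The offset of 0.5 narrows the SD of low values, and members were low in livers with intact Mcl1. Its part in the difference between genotypes was not tested. The share of small structured RNAs was 0.283%, 2.37% and 1.36% in Mcl1Δhep replicates 1, 2 and 3, and its part in this spread was not tested. With that share as a covariate, 40 members and 490 of all genes were called for Mcl1Δhep against WT, and 18 members and 108 of all genes without STING. With both livers of the highest member levels left out, an alternative added after the data were seen, the median average change was 2.43 and all 41 members passed.

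Across the 41 members, the WT level per length and the average change had a Spearman correlation of -0.352, as a description over genes that share the same libraries. The WT values enter both quantities and are subtracted in the change, so counting error alone tends to make this correlation negative. Members with a match to the CHR strings searched had a median average change of 2.95 (n = 28) and those without a match 3.01 (n = 7).

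Some markers of other cells were higher in Mcl1Δhep against WT as well, where 10.8% of all tested genes were higher. Macrophage and monocyte markers summed to 352 to 528 CPM in WT, 447 to 657 in Sting1-/-, 662 to 855 in Mcl1Δhep and 607 to 686 in Mcl1Δhep Sting1-/- livers, and 6 of 10 rose in Mcl1Δhep against WT. T, B and NK cell markers summed to 20.7 to 27.1, 20.4 to 33.8, 33.0 to 44.5 and 34.1 to 41.6 CPM in the same order, with 3 of 9 tested markers higher in Mcl1Δhep. Most of each sum was Ptprc (CD45), which other leukocytes also express, so the sums do not describe T, B and NK cells alone. Ptprc had 17.3, 16.3 and 20.3 CPM in WT and 32.3, 36.8 and 24.7 in Mcl1Δhep livers. No other marker of this list exceeded 3.47 CPM in any liver. Neutrophil markers summed to 2.14 to 4.33, 1.57 to 5.91, 8.10 to 19.5 and 4.19 to 4.39 CPM, with 2 of 6 tested markers higher in Mcl1Δhep. Ly6g was at 0 in the WT and Sting1-/- livers, in Mcl1Δhep replicate 1 and in Mcl1Δhep Sting1-/- replicates 1 and 3. Elsewhere it had at most 0.0949 CPM. Stellate cell and fibroblast markers summed to 424 to 665, 438 to 530, 854 to 926 and 662 to 892 CPM, with 4 of 7 higher in Mcl1Δhep. Des of this list had 7.61, 9.45 and 69.9 CPM in Mcl1Δhep replicates 1, 2 and 3. Replicate 3 is the liver with the high skeletal muscle markers, and the part of muscle in its Des value was not tested.

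Hepatocyte markers stood at 93847 to 149513 CPM in WT and 102053 to 136187 CPM in Mcl1Δhep, with 0 of 10 higher and 1 lower. Erythroid precursor markers were not higher in Mcl1Δhep (0 of 7 tested higher, 1 lower), and cholangiocyte and endothelial markers had 0 called of 6 and 7. Without STING, the edgeR test called 0 of the 63 tested markers with Mcl1 deletion, where 0.677% of all tested genes were higher. An unadjusted edgeR p under 0.05 was found for 12 markers, against 1709 of all 15070 genes. DESeq2 called 6 markers and 3.16% of the genes it tested. Among the Mcl1Δhep livers, replicate 2 had the highest macrophage and neutrophil sums and replicate 1 the highest member sum. The part of each cell type in the member levels was not tested.

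The effect of STING loss in Mcl1-deleted livers was asked with Mcl1Δhep Sting1-/- against Mcl1Δhep. No member was called (0 of 41, edgeR), as for 0% of tested genes, and none had an unadjusted p under 0.05, where 20.6% of tested genes had. DESeq2 called 0 members and 4.74% of the genes it tested. The log2 differences ran from -0.39 (Cdk1) to 0.50 (Mki67), with a median of 0.07 and 24 of 41 positive, against 49.8% of tested genes. The 2 groups overlapped for all 41 members. Intervals were wide, so that 9 of the 41 lay wholly within 1 log2 unit on either side of 0. For Mki67 the 95% interval ran from -0.80 to 1.80, for Cdk1 from -1.08 to 0.29, for Mad2l1 from -0.71 to 0.38 and for Foxm1 from -0.60 to 1.23. Among libraries without Y-linked expression, which leave out the Mcl1Δhep Sting1-/- liver with the highest member sum, the median was -0.51, with 0 called.

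The counterpart with intact Mcl1 was Sting1-/- against WT. Here 39 of 41 members had a positive log2 fold change, against 50.5% of tested genes, and the median was 0.57, from -0.12 (Bub1) to 1.42 (Cdc20). Bub1 and Ect2 (-0.07) were the members with a negative estimate. The edgeR test called 0 members and 0% of tested genes, and DESeq2 called 0 members and 0.326% of genes. An unadjusted edgeR p under 0.05 was found for 2 members, against 5.45% of tested genes, namely Cenpa (0.68, adjusted p = 0.896) and Spc25 (1.23, adjusted p = 0.643). For 16 members all 3 Sting1-/- livers lay above all 3 WT livers, against 7.06% of tested genes. Among them were Ccnb2 at 1.43, 1.41 and 0.700 against 0.501, 0.534 and 0.627 CPM, and Birc5 (0.93, 95% interval -0.18 to 2.04). The intervals of the 39 members other than Cenpa and Spc25 included 0. Among libraries without Y-linked expression the median was 0.46, with 0 called.

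**Figure D5:**
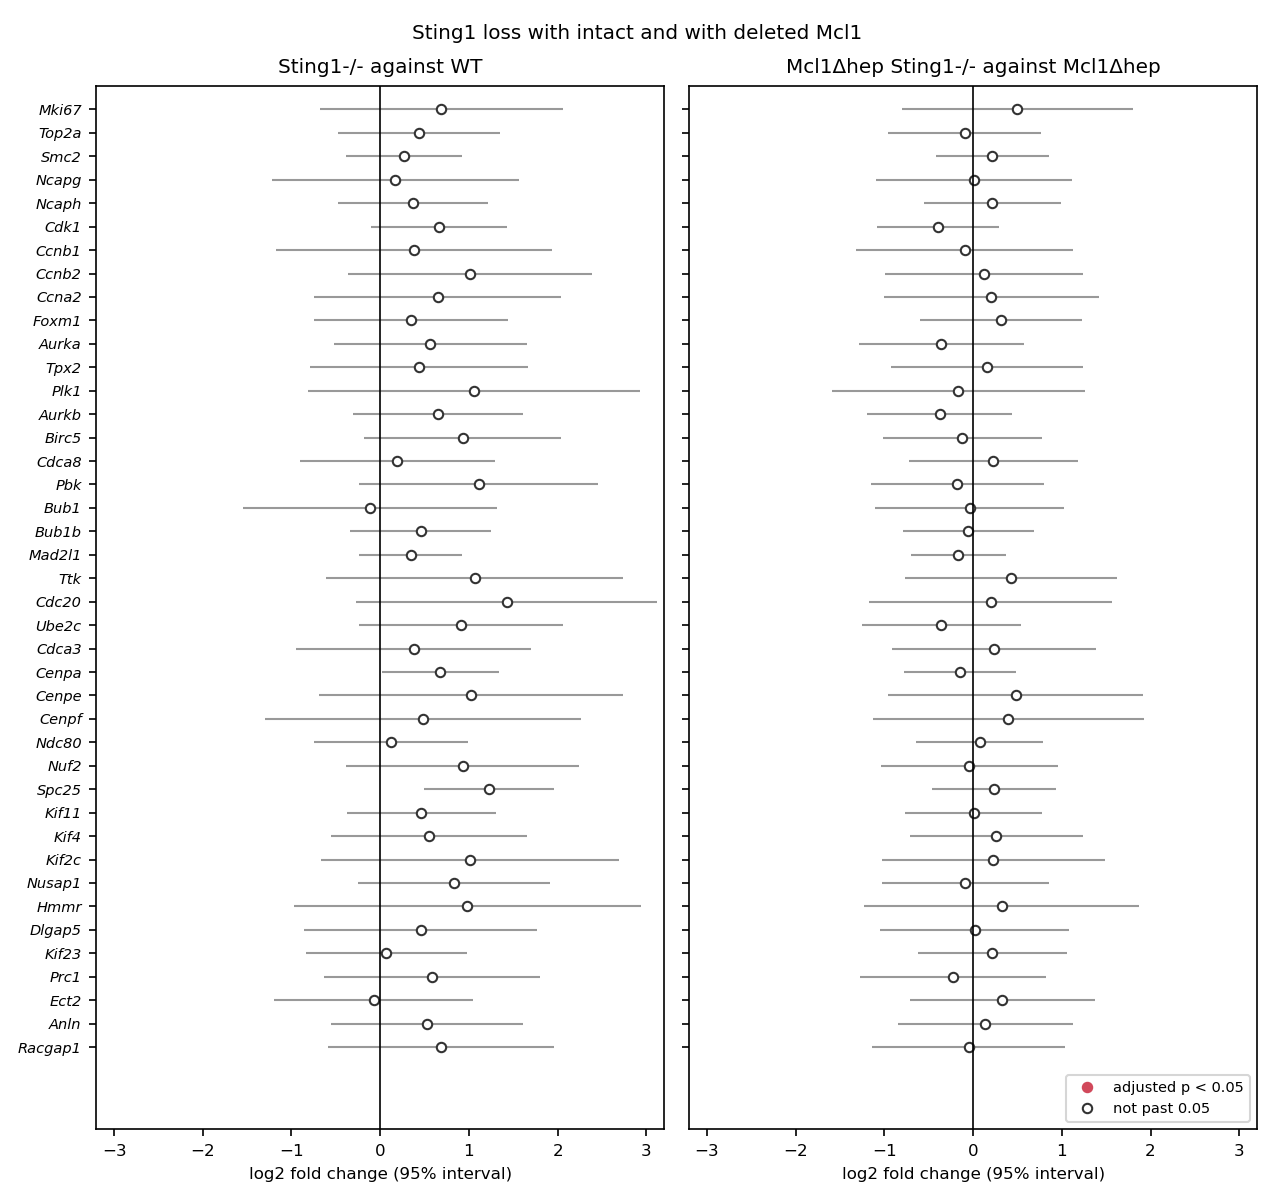
Log2 fold change of each member (x axis, points) with its 95% interval (lines) for Sting1-/- against WT (left) and Mcl1Δhep Sting1-/- against Mcl1Δhep (right). No member passed an adjusted p of 0.05 (open points), and 39 of 41 points lie above 0 on the left against 24 on the right.

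The difference between the 2 Mcl1 effects was tested as an interaction. No member was called by edgeR (0% of tested genes) or by DESeq2 (1.14% of genes). An unadjusted edgeR p under 0.05 was found for 1 member, against 14.4% of tested genes. It was Cdk1, whose estimated change was smaller without STING (-1.06, 95% interval -2.09 to -0.02, adjusted p = 0.339). The median difference was -0.51, and 4 members had a positive estimate, against 49.3% of tested genes, namely Cdca8 (0.03), Bub1 (0.08), Kif23 (0.15) and Ect2 (0.40). For each gene it is also the Mcl1Δhep Sting1-/- against Mcl1Δhep change minus the Sting1-/- against WT change. The members' medians of those were 0.07 and 0.57, so the interaction is not a result separate from the 2 comparisons above. The intervals were 3.06 log2 units wide at the median, and 40 of the 41 included 0. Among libraries without Y-linked expression the median difference was -0.92, with 0 called.

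The pathway around the members was covered by 6 lists of 127 other genes, of which 126 were tested. In the average over both backgrounds, 72 were higher and 1 lower, with a median of 1.03 against -0.02 for all tested genes. Of 28 other kinesins and spindle genes 23 rose (median 2.52), and those with the lowest adjusted p were Kif18b (2.89, adjusted p = 0.000312), a kinesin that trims microtubule ends, and the tubulin-binding Stmn1 (2.58, adjusted p = 0.000367). Of 36 other centromere and kinetochore genes 25 rose (median 1.22), among them Cenpi (3.001, adjusted p = 0.000274) and Ska3 (2.998, adjusted p = 0.000279). Of 17 other kinases, phosphatases and entry regulators 12 rose (median 0.97), among them Plk4 (1.77), the kinase of centriole duplication, and Melk (2.94).

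Of 5 other condensin genes 3 rose (median 1.04), with Ncapg2 at 1.61 and Smc4 at 1.04. Of 21 genes of the anaphase-promoting complex, separase and cohesin control 5 rose (median 0.10), namely Cdca5 (2.74), Cdca2 (2.91), the separase Espl1 (2.49), Fbxo5 (1.07) and Ube2s (0.69), and no core subunit of the complex was called. Of 19 tested MuvB, B-MYB and E2F regulators 4 rose and 1 fell (median 0.13). Mybl1, which encodes A-MYB and not B-MYB (2.91, adjusted p = 0.000297), the pocket protein Rbl1 (1.29), E2f1 (1.03) and E2f7 (1.54) were higher. Rbl2, which encodes the pocket protein p130 of quiescent cells, had 46.9, 52.6 and 51.6 CPM in WT, 43.3, 48.7 and 41.8 in Sting1-/-, 30.8, 22.0 and 26.7 in Mcl1Δhep and 40.5, 39.5 and 34.9 in Mcl1Δhep Sting1-/- livers. Every Mcl1-deleted liver was below every other liver, and Rbl2 was lower in the average (-0.57, adjusted p = 0.00296). In Mcl1Δhep against WT alone, 68 of the 126 were higher and 3 lower, and without STING 24 were higher and 0 lower.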

How the data were processed

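Total RNA of 12 mouse livers was sequenced on a NovaSeq, and per the labels the RNA came from a Qiagen RNeasy Plus Mini Kit, while the study's methods name a Micro kit. The deposited files hold counts of reads per gene, 1 column per library, which the authors made on the SUSHI platform with STAR and featureCounts on GRCm39, according to the submitters' processing notes. Versions, annotation and the use of strand in counting are not given in the sources used here. Each group and replicate number came from the labels, and nothing there says more of the replicates than that they are separate livers of one genotype.

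Library totals were 28826367 to 45266387 counts. Genes were kept at 0.267 CPM in at least 3 libraries (filterByExpr), scaled by TMM and tested over all 12 libraries with 1 coefficient per genotype by the quasi-likelihood test of edgeR 4.0.16 in R 4.3.3 (limma 3.58.1), with Benjamini-Hochberg adjustment over 15070 genes and a threshold of 0.05. SEs and 95% intervals are Wald values of that fit. Members had 1 to 2788 counts per gene and library, so the low ones carry more counting error. TPM was computed from exon length in the reference annotation. The scripts were tested on simulated data. Other settings (DESeq2 1.42.0, RLE, library totals, no filter, compared groups alone, covariates, a replicate block, leaving out libraries) are given in the closing section.

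Promoters came from a RefSeq table (GRCm38.p6), and both strands were searched. The members, role groups, pathway lists and marker lists were chosen with earlier results of these data known. Values in every library are given for Mki67, Top2a, Cdk1, Ccnb1 and Foxm1, for the members of each role group with the lowest and highest adjusted p in the average comparison, and for members called or of opposite sign where fewer than 5 were. From each pathway list the 2 genes of lowest adjusted p are named. Cdc20, Spc25 and other members given with single values were added after their values were seen.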

Additional observations from a re-analysis of the deposited data

How the results depend on the processing

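With Mcl1 deletion averaged over both backgrounds, 32 to 41 members were called under every setting, and the median moved most without both livers of highest member levels (2.43). For Mcl1Δhep against WT, 0 were called with only libraries without Y-linked expression, where WT is a single liver and fewer samples remain, and the median was 2.60 without both highest livers and 3.85 without Mcl1Δhep replicates 2 and 3. Leaving out 1 library gave 35 to 41 called and medians of 2.60 to 3.53. For Mcl1Δhep Sting1-/- against Sting1-/-, DESeq2 called 41, the compared groups alone 0, the Y-linked covariate 5, libraries without Y-linked expression 0 (median 1.98) and the fit without both highest livers 0 (median 1.98). Leaving out 1 library gave 0 to 37 called and medians of 1.98 to 3.12. It was 0 without any Sting1-/- liver or Mcl1Δhep Sting1-/- replicate 1 or 2, and 9 without WT replicate 2 or 3 or Mcl1Δhep replicate 2. The cause was not tested.

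For Mcl1Δhep Sting1-/- against Mcl1Δhep the median was -0.51 with only libraries without Y-linked expression and -0.52 to 0.46 on leaving out 1 library, the lowest without Mcl1Δhep Sting1-/- replicate 1. The median interaction was -1.23 with the Y-linked covariate, -1.12 without Mcl1Δhep replicates 2 and 3, and -1.09 to -0.062 on leaving out 1 library. No member was called in these comparisons or in Sting1-/- against WT under any setting. Plain library totals put the median of all genes at 0.19 and of members at 3.38 for Mcl1Δhep against WT, both higher by about the same amount. Before the start alone, 37.1% of member promoters had CHR, 0% the E2F-like motif and 34.3% both CHR and CCAAT, and within 50 bases of the start 51.4% had CCAAT and 48.6% both.

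Replicate numbers are shared between groups by number only: of 18 pairs of same-numbered libraries, 3 had deviations correlated above 0.1 (-0.54 to 0.25). With the replicate block, 41, 36 and 41 members were called for Mcl1 deletion in WT, in Sting1-/- and in the average, and 0 in the other comparisons.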
